A study of Mus musculus with 16 samples.

Results

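The genes of translation initiation factor eIF1A and its relatives were followed in single mouse embryos at the two-cell stage, with the maternal pool of KDM1A present or deleted. KDM1A, also named LSD1, is a histone demethylase that the oocyte hands to the embryo. The family was taken by gene symbol: Eif1a, Eif1ax and Eif1ad, and 5 eIF1A-like copies that lie together on chromosome 12, Gm2016, Gm2022, Gm2056, Gm5662 and Gm8300. Of these 8 members, 7 had a row among the 24063 genes of the count files, and Gm2056, which RefSeq (GRCm38.p6) lists as a pseudogene, had none. Control embryos (f/wt, 8 libraries) came from superovulated Kdm1a f/f females without Cre, and mutant embryos (Δm/wt, 8 libraries) from females that also carried Zp3-cre (Kdm1a f/f::Zp3-cre, likewise superovulated), a transgene whose oocyte promoter drives Cre so that the first exon is removed while oocytes grow. The Kdm1a f/f::Zp3-cre line was of a mixed C57BL/6J and 129 background, that of the control females is not given in the sources used here, and all males were wild-type B6D2F1, so that every Δm/wt embryo kept an intact paternal Kdm1a allele. By the study's methods, polyadenylated RNA came from 1 whole embryo per library, stripped of its zona pellucida. Whether a lower value means fewer transcripts or an embryo that had advanced less cannot be told apart in such samples.

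eIF1A binds the small ribosomal subunit together with eIF1, keeps it open for scanning along the mRNA leader, and takes part in the choice of the start codon. In mouse the ubiquitous form is encoded by the X-linked Eif1ax, and Eif1a is an autosomal gene whose coding sequence lies in a single exon. Eif1ad encodes a more distant protein with an eIF1A domain that in human cells is found on maturing small ribosomal subunits. The eIF1A-like copies belong to the multicopy genes that are switched on with the embryonic genome at the two-cell stage, and they are also transcribed in embryonic stem cells that pass through a two-cell-like state.

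The copies are nearly the same sequence, which bears on what short reads can tell about each. All 5 have a coding sequence of 432 bases in 1 exon, as long as that of Eif1ax, which is spread over 7 coding exons. On the mm10 build they lie within a stretch of 760182 bases, Gm8300 at chr12:87514316-87518265, Gm2016 at chr12:87874072-87877859, Gm2022 at chr12:87892834-87896722, Gm2056 at chr12:88025029-88028791 and, on the opposite strand, Gm5662 at chr12:88270635-88274497. Among the 5 copies, 17 of the 432 coding positions differ, and any 2 of them share 97.7 to 99.1% of their coding bases. They share 84.7 to 85.2% with Eif1ax. Bases 262 to 411 of the coding sequences, taken from the GENCODE M21 transcripts, hold 8 of the positions that differ and are shown here to make the likeness visible. Capitals mark bases that differ from the most common base among the 5 copies.
Gm8300: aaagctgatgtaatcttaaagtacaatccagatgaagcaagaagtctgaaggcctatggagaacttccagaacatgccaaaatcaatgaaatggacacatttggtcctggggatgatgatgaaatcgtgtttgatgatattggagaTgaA
Gm2016: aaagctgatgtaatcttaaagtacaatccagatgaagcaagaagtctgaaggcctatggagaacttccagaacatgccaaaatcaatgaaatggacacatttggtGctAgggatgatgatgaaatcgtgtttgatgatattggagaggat
Gm2022: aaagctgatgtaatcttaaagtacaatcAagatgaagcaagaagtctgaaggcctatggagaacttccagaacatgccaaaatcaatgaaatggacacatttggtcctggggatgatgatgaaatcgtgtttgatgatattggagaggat
Gm2056: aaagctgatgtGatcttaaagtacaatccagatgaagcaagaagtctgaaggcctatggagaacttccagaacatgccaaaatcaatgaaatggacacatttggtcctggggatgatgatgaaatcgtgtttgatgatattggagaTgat
Gm5662: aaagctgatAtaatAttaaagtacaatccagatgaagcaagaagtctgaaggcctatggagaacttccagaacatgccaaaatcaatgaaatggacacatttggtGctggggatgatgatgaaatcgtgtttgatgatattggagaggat
Eif1ax: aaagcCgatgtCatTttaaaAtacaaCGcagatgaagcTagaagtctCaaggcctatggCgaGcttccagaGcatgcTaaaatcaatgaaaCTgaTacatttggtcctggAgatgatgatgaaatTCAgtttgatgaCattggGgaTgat
The copies carried 1 to 3 such bases each in this window and Eif1ax carried 22. The reads of the study were 49 bases long and were kept only where they aligned to a single place, so only stretches with such differences could give counts to 1 copy. Of all windows of 49 bases in the longest annotated transcript, 72.8% in Gm8300, 21.6% in Gm5662, 18.3% in Gm2016, 12.7% in Gm2056 and 2.3% in Gm2022 were found in the transcript of no other gene. The model of Gm2022 has only 435 bases, hardly more than the coding sequence, whereas that of Gm8300 has 1873. The study counted reads over RefSeq genes, and the counted Gm2022 spans chr12:87892834-87896722. These shares thus describe the GENCODE M21 models and not all the sequence that was counted. For Eif1ax and Eif1ad the share was 100%. Levels of the single copies were therefore not ranked against each other, and their counts were also summed. The sum covers the 4 copies with a row.

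Libraries held 3212510 to 9337451 gene counts in f/wt and 4049168 to 14334244 in Δm/wt. Between f/wt 2 and 3 the mean chi-square was 1.89 per gene, close to sampling noise, whereas 55 other pairs of libraries of one group had 45.6 to 366. These 2 libraries were therefore added up and counted once, written f/wt 2+3, so that 7 samples of f/wt were set against 8 of Δm/wt. The labels name them as 2 embryos, and whether they stem from the same embryo was not tested. Kdm1a, the deleted gene, had 8 to 188 counts in the f/wt libraries and 0 to 26 in the Δm/wt libraries, which gave a log2 fold change of -2.99 ± 1.01 (SE, edgeR's quasi-likelihood test with Benjamini-Hochberg adjustment, adjusted p = 0.0211), although f/wt 6 with 8 counts lay below 3 Δm/wt libraries. Of 10 oocyte and early embryo markers, 9 rose in Δm/wt, beside 21.9% of all genes tested that rose. The 10 markers summed to 3120 to 5180 CPM (counts scaled to a common library size by TMM) in f/wt and 15300 to 30000 in Δm/wt. Of 10 markers of cumulus and granulosa cells, 4, among them Foxl2 and Fshr, were at 0 in all samples, and the list summed to between 4.03 and 182 CPM per f/wt sample and between 29.2 and 147 per Δm/wt sample. Of the 2 that could be tested, Cyp19a1 rose and Amhr2 fell. All 6 tested markers of blood and myeloid cells rose, beside the same 21.9% of all genes tested. Their list summed to between 0.992 and 12.3 CPM per f/wt sample and between 9.27 and 1950 per Δm/wt sample, highest in Δm/wt 4, 5 and 6. The part of these transcripts in the results on the eIF1A family was not tested.

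In Δm/wt embryos Eif1a and the 4 copies with a row were lower and Eif1ad was moderately lower. Eif1ax was at a like mean level in both groups. All 7 members with a row passed the filter on low counts and were tested among 11344 genes. Of the 7, 6 fell in Δm/wt at an adjusted p under 0.05 and 0 rose, beside 22.8% of all genes tested that fell and 21.9% that rose. Of these 6, 4 are near-identical copies whose levels correlated at r = 0.957 to 0.996, so the calls are not independent of each other. With scaling to Hprt, Gapdh and Ppia, 1 of the 7 fell. Of the 4 copies with a row, 4 fell. This does not hold for all genes of their kind. Of 3 eIF1A-like genes of the same chromosome that were tested but are not members, 1 fell and 0 rose. The groups did not overlap for 1 member, Eif1a, beside 16.2% of all genes tested. Over all genes tested, log2 fold changes had a median of 0.04.

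**Figure D1:**
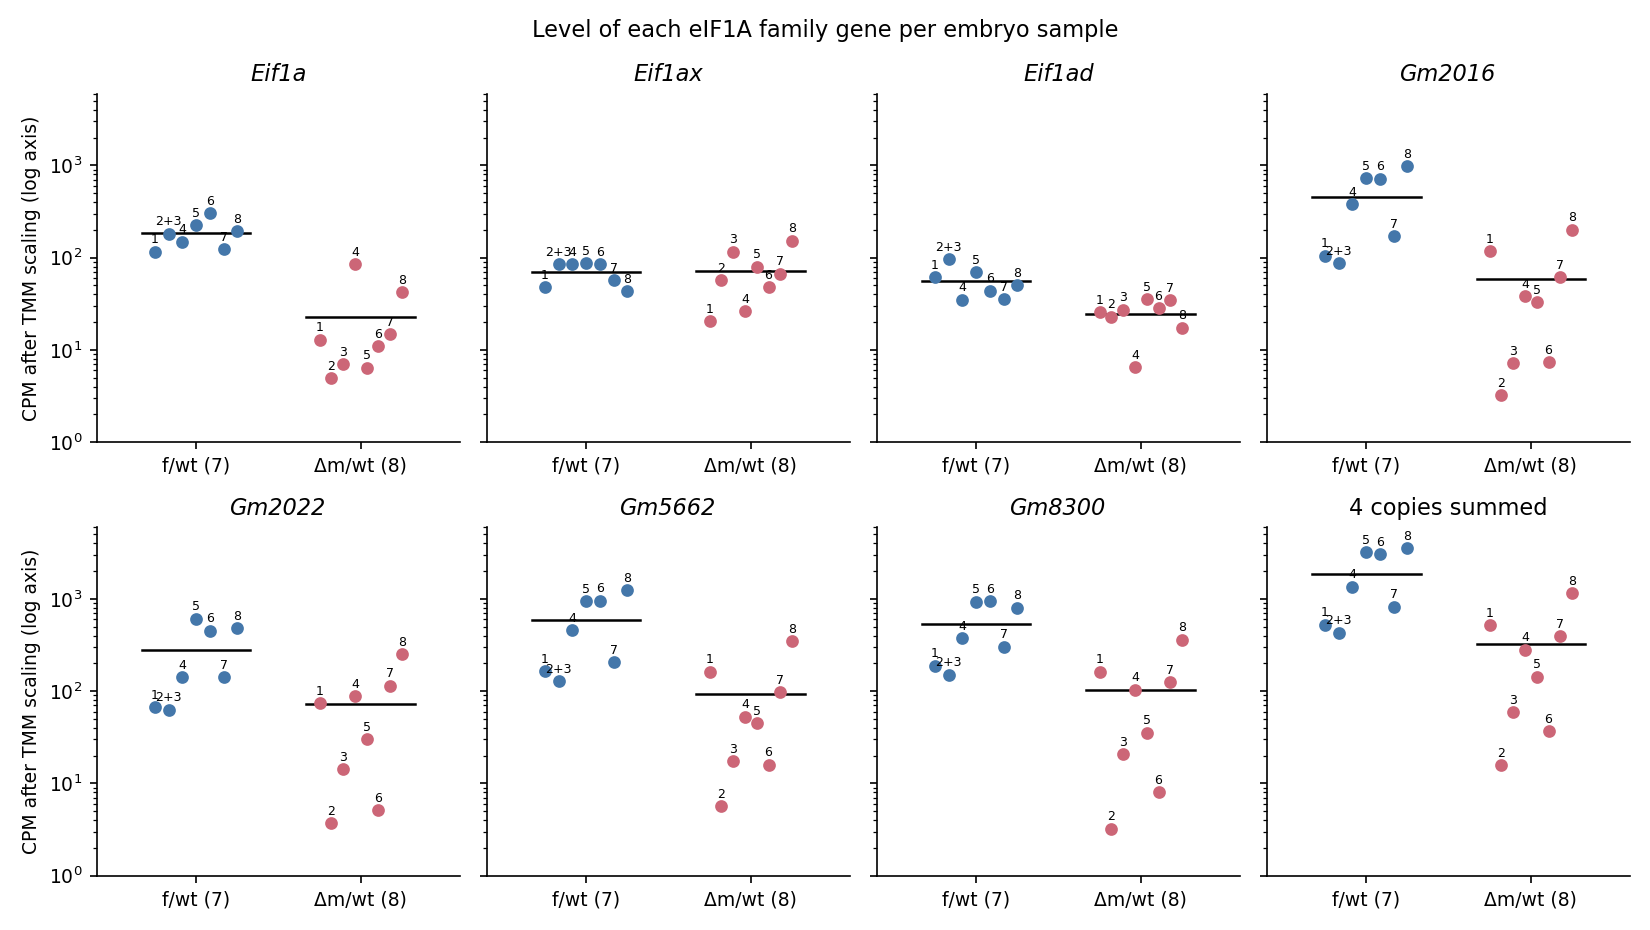
Level of each family gene in each sample, in CPM after TMM scaling on a log axis, for 7 f/wt samples (blue) and 8 Δm/wt samples (red), with the embryo number beside each point and a bar at the group mean. Eif1a is separate between the groups, Eif1ax overlaps, with a wider spread in Δm/wt (20.4 to 153 CPM) than in f/wt (43.4 to 87.8 CPM), and the 4 copies spread widely within each group.

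Eif1a lies at 46597704 to 46610225 on chromosome 18 (mm10). It stood at 116 CPM in f/wt 1, 182 in f/wt 2+3, 148 in f/wt 4, 224 in f/wt 5, 302 in f/wt 6, 123 in f/wt 7 and 194 in f/wt 8. In Δm/wt embryos 1 to 8 it stood at 12.8, 4.96, 7.03, 84.7, 6.42, 10.99, 14.7 and 42.2 CPM. All 8 Δm/wt embryos were under the lowest f/wt sample, and 6 of them were below 15 CPM, with Δm/wt 4 and 8 higher. The means were 184 ± 64.7 CPM in f/wt (SD, n = 7) and 23.0 ± 27.6 in Δm/wt (SD, n = 8), 8.02-fold apart. Eif1a fell by 3.00 ± 0.58 on the log2 scale (SE, edgeR's quasi-likelihood test, adjusted p = 3.63e-04). Without Δm/wt 4 the log2 fold change was -3.70 (adjusted p = 2.16e-05), and among embryos 4 to 8 alone, which were sequenced as 1 set by the study's table of reads, it was -2.64 (adjusted p = 0.00859). For Eif1a 95.8% of the 49-base windows were found in no other gene, and its coding sequence shares 94.2 to 95.1% of its bases with those of the copies.

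Eif1ax, the X-linked form (chrX:159372195-159385699), did not show such a difference. Its levels in f/wt were 47.6 CPM in embryo 1, 84.7 in 2+3, 84.3 in 4, 87.8 in 5, 85.5 in 6, 57.3 in 7 and 43.4 in 8. In Δm/wt embryos 1 to 8 they were 20.4, 56.8, 116, 26.1, 79.6, 47.9, 67.0 and 153 CPM. The Δm/wt values spread around those of f/wt, with 2 below the lowest and 2 above the highest of them. Means were 70.1 ± 19.8 CPM in f/wt (SD, n = 7) and 70.7 ± 44.8 in Δm/wt (SD, n = 8). The log2 fold change was 0.01 ± 0.44 (SE, adjusted p = 0.982 by edgeR), with a 95% interval of -0.85 to 0.88 that holds changes of either sign. Its sign differed between alternatives, among them scaling by library totals alone (-0.44) leaving out f/wt 8 (-0.25) and scaling to reference genes (0.81, adjusted p = 0.236 by edgeR).

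Counts of Eif1a per count of Eif1ax within each library, a ratio that no scaling between libraries can alter, were 2.43 in f/wt 1, 2.15 in 2+3, 1.76 in 4, 2.56 in 5, 3.53 in 6, 2.15 in 7 and 4.47 in 8. In Δm/wt embryos 1 to 8 they were 0.629, 0.0873, 0.0608, 3.25, 0.0806, 0.230, 0.219 and 0.277. Hence Eif1a gave more counts than Eif1ax in every f/wt sample and fewer in 7 of 8 Δm/wt samples, the exception being Δm/wt 4, which had both the highest Eif1a level of its group and a low Eif1ax level. The ratio compares samples and not the abundance of the 2 genes, since their transcripts differ in length (2865 and 5172 bases in GENCODE M21). By the study's account, its method also covers only a limited stretch from the poly(A) tail, so counts need not scale with full length.

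Eif1ad (chr19:5366813-5371511) is the most distant member, with a coding sequence of 510 bases in 5 exons that shares 42.2 to 43.7% of its bases with the other members. It stood at 61.1 CPM in f/wt 1, 96.2 in f/wt 2+3, 35.2 in f/wt 4, 69.8 in f/wt 5, 43.7 in f/wt 6, 35.4 in f/wt 7 and 50.3 in f/wt 8, and at 25.6, 22.8, 27.2, 6.52, 35.2, 28.5, 34.7 and 17.4 CPM in Δm/wt embryos 1 to 8. The groups touched at 1 value, Δm/wt 5 reaching the level of f/wt 4, and the other 7 Δm/wt embryos had less than any f/wt sample. Means were 56.0 ± 21.9 CPM in f/wt (SD, n = 7) and 24.7 ± 9.41 in Δm/wt (SD, n = 8), and Eif1ad fell by 1.18 ± 0.45 on the log2 scale (SE, edgeR, adjusted p = 0.0391). This call was close to the threshold and was lost when any 1 of 7 samples was left out (f/wt 1, 2+3 and 5, Δm/wt 1 to 4), with adjusted p up to 0.100, and among embryos 4 to 8 alone (log2 fold change -0.94, adjusted p = 0.314). With embryo number as a block the adjusted p was 0.100.

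The copies behaved as a group. Their summed level in f/wt was 525 CPM in embryo 1, 429 in 2+3, 1353 in 4, 3198 in 5, 3069 in 6, 820 in 7 and 3511 in 8. In Δm/wt embryos 1 to 8 it was 516, 15.9, 59.2, 282, 143, 36.6, 397 and 1160 CPM. Of the 8 Δm/wt samples, 6 lay below the lowest f/wt sample, while Δm/wt 1 and 8 reached into the f/wt range. The mean was 1844 ± 1363 CPM in f/wt (SD, n = 7) and 326 ± 382 in Δm/wt (SD, n = 8), 5.65-fold apart. Without Δm/wt 8 the Δm/wt mean was 212 CPM. Expressed as a share of all gene counts, the 4 copies took 0.054 to 0.317% of an f/wt library and 0.00158 to 0.0844% of a Δm/wt library.

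Within f/wt the copies varied far more than Eif1a or Eif1ax. The highest f/wt sample stood 8.18-fold above the lowest for the summed copies, 2.60-fold for Eif1a and 2.02-fold for Eif1ax. The f/wt embryos 1 and 2+3 were the lowest, and neither belongs to the set of embryos 4 to 8. Within the set of embryos 4 to 8 the summed copies ranged from 820 to 3511 CPM in 5 f/wt samples and from 36.6 to 1160 in 5 Δm/wt samples, where Δm/wt 8 lay above f/wt 7. In the set of embryos 1 and 2, f/wt 1 (525 CPM) and Δm/wt 1 (516 CPM) were close and Δm/wt 2 had 15.9. The merged f/wt 2+3 spans 2 sets and was placed with embryo 3, where it had 429 CPM and Δm/wt 3 had 59.2. Whether the sets also differ in how the embryos were handled was not tested.

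Gm2016, in the middle of the stretch, was at 105, 86.4, 379.9, 723, 714, 172 and 982 CPM in f/wt 1, 2+3 and 4 to 8, and at 118, 3.22, 7.12, 38.2, 32.7, 7.37, 61.3 and 200.5 CPM in Δm/wt 1 to 8. It fell by 2.95 ± 0.75 on the log2 scale (SE, edgeR, adjusted p = 0.00350). Of the 8 Δm/wt embryos 6 were under the f/wt range, and Δm/wt 1 and 8 within it. Gm5662, on the other strand, went from 129 to 1249 CPM in f/wt (median 456) and from 5.71 to 350.1 in Δm/wt (median 48.7), and fell by 2.65 ± 0.72 (adjusted p = 0.00532 by edgeR). Gm8300 had the largest share of windows of its own in the GENCODE M21 models. It was at 189, 151, 376, 932, 945, 303 and 801 CPM in f/wt 1, 2+3 and 4 to 8, and at 162, 3.22, 20.7, 103, 35.5, 8.07, 124 and 360 CPM in Δm/wt 1 to 8. It fell by 2.37 ± 0.72 (adjusted p = 0.0115 by edgeR). In each of these 3 copies f/wt 5, 6 and 8 were the highest samples and Δm/wt 2 was the lowest.

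Gm2022 has hardly any window of its own in its short GENCODE M21 model. It went from 62.8 to 608 CPM in f/wt (median 141) and from 3.72 to 249.8 CPM in Δm/wt (median 51.9). Of the 8 Δm/wt embryos, 4 were under the f/wt range. It fell by 1.95 ± 0.73 on the log2 scale (SE, edgeR, adjusted p = 0.0356). The call was lost when any 1 of 5 samples was left out (f/wt 5 and 6, Δm/wt 3, 5 and 6; adjusted p up to 0.0831), among embryos 4 to 8 alone (-1.90, adjusted p = 0.0633), and with embryo number as a block (-1.81, adjusted p = 0.0594). For the other 3 copies the calls held under these 3 kinds of alternative. Leaving out Δm/wt 8, the highest sample of the group, moved the log2 fold changes of Gm2016, Gm2022, Gm5662 and Gm8300 to -3.56, -2.57, -3.37 and -3.01.

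**Figure D2:**
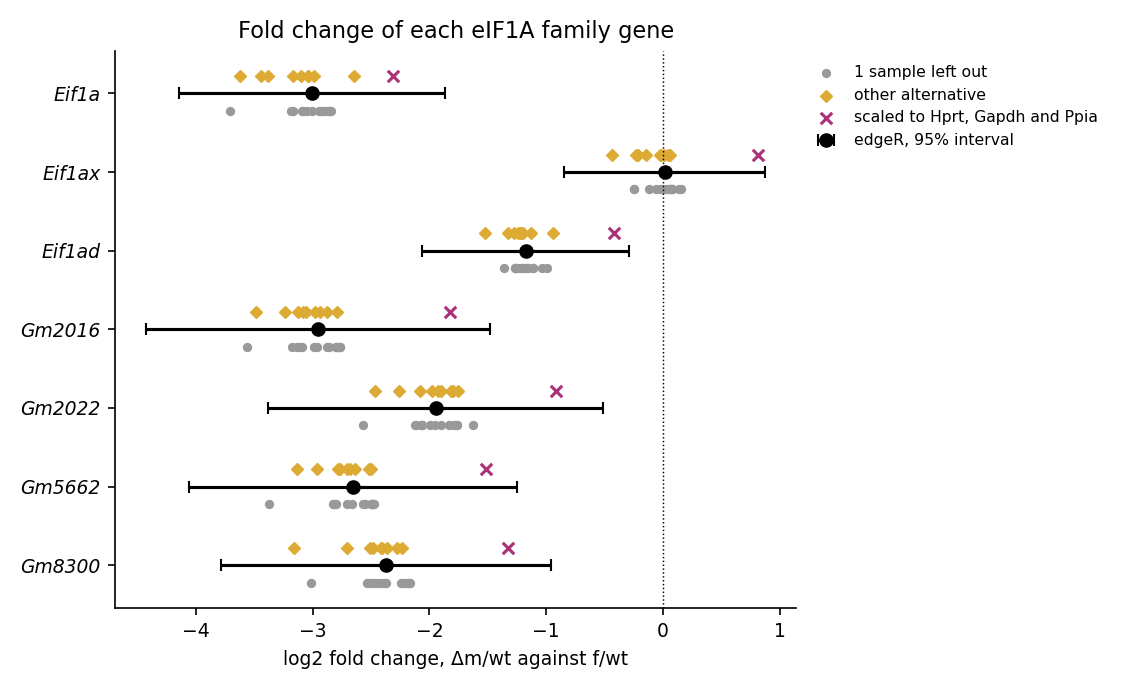
Log2 fold change of Δm/wt against f/wt for each family gene (black points, with an approximate 95% interval), under each sample left out in turn (grey), other alternatives (yellow diamonds) and scaling to 3 reference genes (crosses). The intervals of Eif1a, Eif1ad and the 4 copies lie below 0 and that of Eif1ax runs from -0.85 to 0.88.

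All levels here depend on how libraries are scaled. The median log2 fold change over all genes was -0.32 when library totals alone were used. It was 0.74 when libraries were scaled to the qPCR reference genes of the study, which are Hprt, Gapdh and Ppia. Relative to that median the log2 fold change of Eif1a was -3.04 after TMM scaling, -3.06 with library totals and -3.06 with the reference genes. That of Gm8300 was -2.41, -2.38 and -2.07 and that of Eif1ax -0.03, -0.12 and 0.07. With the reference genes 1 member fell, Eif1a (adjusted p = 0.00333 by edgeR), and the copies had log2 fold changes of -1.82 in Gm2016, -1.52 in Gm5662, -1.33 in Gm8300 and -0.92 in Gm2022, with adjusted p of 0.0534, 0.0927, 0.141 and 0.314. These 3 reference genes did not keep to one level in the main scaling, where Gapdh rose by 1.27 ± 0.45 on the log2 scale (adjusted p = 0.0257, edgeR) and Ppia fell by 1.71 ± 0.33 (adjusted p = 4.01e-04, edgeR).

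The share of each copy in the summed counts varied between samples of both groups. Gm5662 took a median of 31.2% of the summed counts in f/wt (25 to 35.6%) and 30.7% in Δm/wt (18.7 to 43.7%), and Gm8300 took 30.8% (22.8 to 36.9%) and 31.2% (20.3 to 36.6%). For Gm5662, 2 Δm/wt samples were above and 2 below the f/wt range, and for Gm8300 2 were below it. Gm2016 took a median of 22.6% in f/wt (19.9 to 28.1%) and 18.7% in Δm/wt (12 to 22.8%), with 4 of 8 Δm/wt samples below the f/wt range. Gm2022 took 12.7% in f/wt 1, 14.6% in 2+3, 10.5% in 4, 19.0% in 5, 14.7% in 6, 17.2% in 7 and 13.6% in 8. In Δm/wt embryos 1 to 8 its share was 14.3, 23.4, 23.9, 31.2, 21.2, 14.1, 28.8 and 21.5%. Thus 6 of 8 Δm/wt samples were above the highest f/wt share for Gm2022. Where the counts were few, counting error was wide: the 15 counts of Gm2022 among 64 in Δm/wt 2 give an exact 95% interval of 13.8 to 35.7%, against 29.2 to 33.1% for 688 of 2208 in Δm/wt 4. These shares were not tested, and such intervals cover counting error only.

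**Figure D3:**
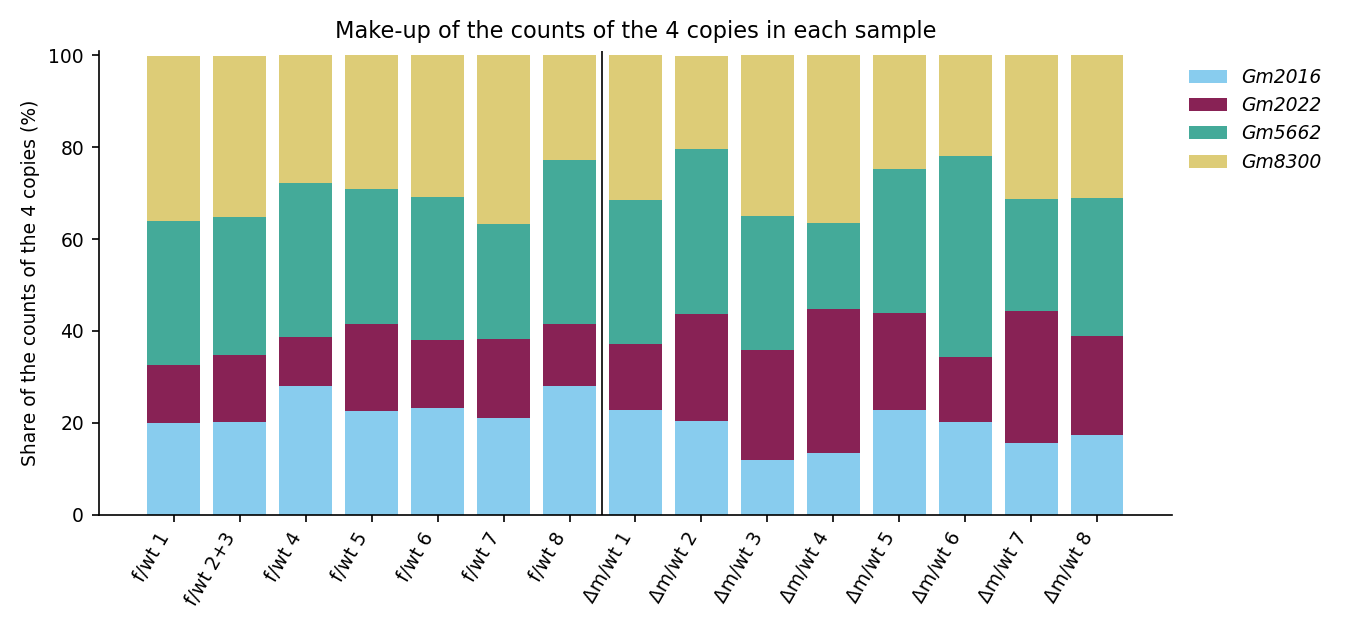
Share of Gm2016, Gm2022, Gm5662 and Gm8300 in their summed counts, in percent, for each f/wt sample (left of the line) and Δm/wt sample (right). Gm2022 took 10.5 to 19.0% in f/wt and 14.1 to 31.2% in Δm/wt.

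Over the 15 samples the copies' log2 CPM correlated with each other at r = 0.957 to 0.996, which counts as a description, since their reads are nearly the same and come from the same libraries. Eif1a followed the summed copies at r = 0.833 over all samples and at 0.658 once the group means were removed. Eif1ax followed them at 0.107 and 0.017 on the same measures. Eif1ad followed them at 0.350 over all samples and at -0.249 within groups. The number of the copies' counts per count of Eif1a was 4.53, 2.36, 9.11, 14.2, 10.2, 6.64 and 18.1 in f/wt 1, 2+3 and 4 to 8, and 40.1, 3.20, 8.43, 3.33, 22.3, 3.33, 27.0 and 27.5 in Δm/wt 1 to 8. The ratio thus varied within both groups, and in 4 of 8 Δm/wt samples (1, 5, 7 and 8) it was above the f/wt range.

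**Figure D4:**
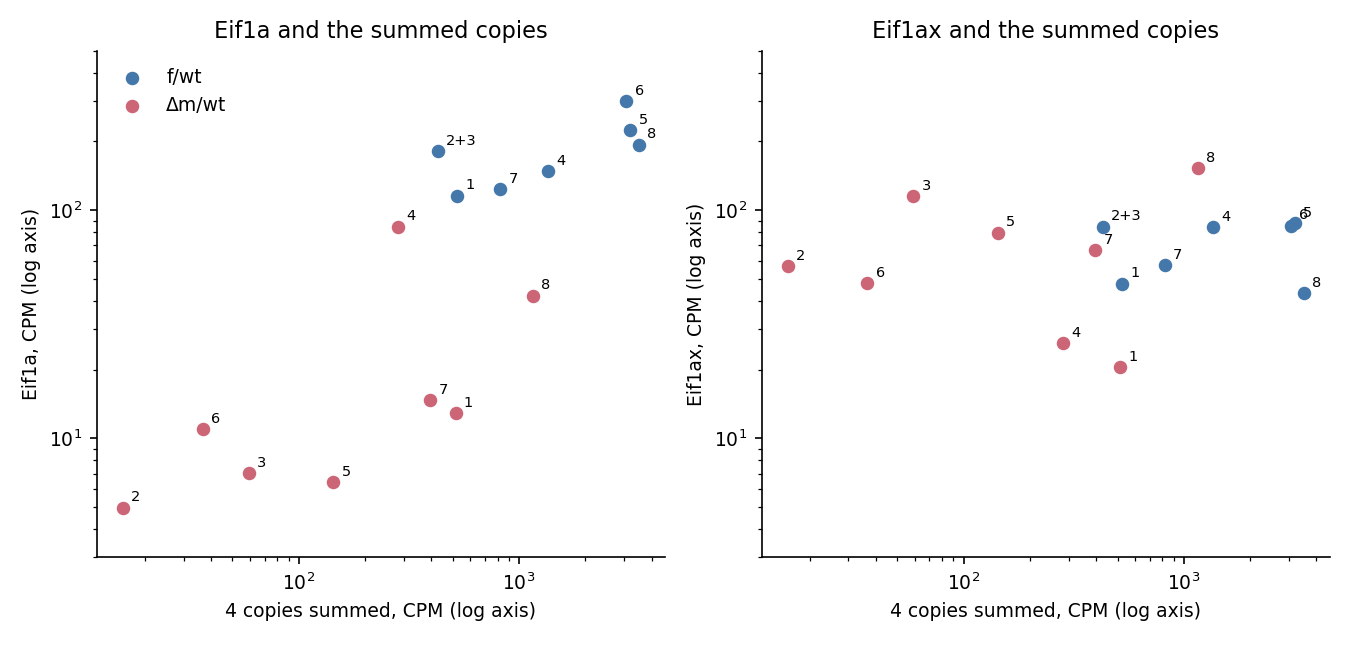
Level of Eif1a (left) and of Eif1ax (right) against the summed level of the 4 copies in each sample, both in CPM on log axes, with embryo numbers beside the points. Eif1a follows the copies (r = 0.833 on the log2 scale, 15 samples) and Eif1ax does not (r = 0.107).

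The genes whose levels were most like the summed copies were then taken among the 7969 genes whose mean reached 10 CPM, by Pearson's correlation of log2 CPM over the 15 samples. By levels these were Gm21319 (r = 0.974), BB287469 (0.955), Gm16938 (0.927), Gm2027 (0.923) and Tgs1 (0.921), which encodes the enzyme that trimethylates the caps of small nuclear RNAs. By deviations from the group means they were Gm5039 (0.983), BB287469 (0.976), Gm21319 (0.950), Pramef25 (0.911), a PRAME-like gene, and A130077B15Rik (0.887). Of these, Gm21319, BB287469 and Gm5039 are themselves eIF1A-like: a search of all GENCODE M21 transcripts with the coding sequence of Gm2016 found 21 genes with at least 80% identity over at least 80% of it, 18 of them on chromosome 12, among them these 3 at 97.2 to 97.7% identity. They may share reads with the members, so their likeness is not independent of them.

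Among the 21 genes, 4 that are not members had a row in the count files. Gm4027 was at 0 in all samples. Gm21319 stood at 24.8 to 224 CPM in f/wt and 1.81 to 30.5 CPM in Δm/wt and fell by 2.57 ± 0.69 on the log2 scale (SE, edgeR, adjusted p = 0.00485). BB287469, with 67.4 to 543 CPM in the f/wt samples and 5.21 to 423 in the Δm/wt samples, had a log2 fold change of -1.15 ± 0.74 (adjusted p = 0.214 by edgeR). Gm5039, with between 34.0 and 309.8 CPM in the f/wt samples and between 7.69 and 424 in the Δm/wt samples, had -0.58 ± 0.70 (adjusted p = 0.518 by edgeR). In the latter pair, 4 and 3 of 8 Δm/wt embryos were under the f/wt range, and Δm/wt 1 and 8 were again the highest of their group. These genes were looked at after the values of the members were known, and whether they differ from the members was not tested. Within the stretch that holds the 5 copies, 8 rows were not members, of which 6 were tested. Of these, 3 fell and 2 rose, beside 22.8% of all genes tested that fell and 21.9% that rose. The 8 rows include Gm21319, BB287469 and Gm4027, which are thus counted here again.

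The two-cell list, transcripts known to appear with the activation of the embryonic genome, had 24 rows of 26 genes listed. Of 20 tested, 10 fell and 0 rose, with a median log2 fold change of -2.22, against 0.04 for all genes tested, of which 22.8% fell and 21.9% rose. Of the list, 6 fell and 0 rose once libraries were scaled to the 3 reference genes. Under that scaling 1594 of all 11344 genes tested fell and 3540 rose. Among the 10, and picked here after their values were seen, were Tdpoz1 (log2 fold change -6.12, adjusted p = 1.24e-05 by edgeR), Slc34a2 (-5.01, adjusted p = 6.35e-05) and Tcstv3 (-3.87, adjusted p = 5.33e-05). Log2 fold changes above 0 were those of the Zscan4 genes tested, Zfp352 and Usp17la. They ran from 0.19 to 0.97, with adjusted p of 0.347 to 0.839 by edgeR. The list holds several genes of the same families, such as Zscan4 and Tdpoz, so its counts are not of unrelated genes. Zscan4d, which encodes a zinc finger protein with a SCAN domain, lay between 14.1 and 96.4 CPM in f/wt samples and between 0.417 and 116 in Δm/wt samples (log2 fold change 0.34 ± 0.76, adjusted p = 0.731 by edgeR), a two-cell transcript for which the Δm/wt samples reached both below and above the f/wt range. Tdpoz4, which encodes a TRAF and BTB domain protein, had 3 to 76 counts in the f/wt samples and 0 to 3 in Δm/wt, and was too low to be tested. The summed list was at 2870 to 7880 CPM in f/wt samples and at 212 to 7680 CPM in Δm/wt samples, where Δm/wt 1 and 8, the embryos with the highest summed copies in their group, were also the highest with 7676 and 3169 CPM.

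Other genes of the initiation machinery were taken as a list of 35, which holds factors of the preinitiation complex and of scanning as well as genes of ribosome recycling, reinitiation and subunit joining. Of 33 tested, 17 fell and 2 rose, with a median log2 fold change of -1.29, beside 22.8% of all genes tested that fell, 21.9% that rose and their median of 0.04. Eif3b and Eif3a, which encode core subunits of eIF3, had medians of 135 and 304 CPM in f/wt and of 5.88 and 20.7 CPM in Δm/wt, and had log2 fold changes of -4.16 ± 0.63 and -3.75 ± 0.47 (SE, edgeR, adjusted p = 3.56e-05 and 5.88e-06). Eif4h, which encodes a cofactor of the eIF4A helicase, fell by 3.46 ± 0.58 (adjusted p = 9.06e-05 by edgeR), and its groups did not overlap (28.1 to 295 CPM and 3.97 to 25.6 CPM). Mcts1, whose product works with DENR in reinitiation, fell by 3.36 ± 1.15 (adjusted p = 0.0223 by edgeR), but with 0.256 to 82.2 CPM in the f/wt samples and 0 to 12.9 in the Δm/wt samples its groups overlapped. Eif1, which encodes the partner of eIF1A in start codon selection, had a mean of 3049 CPM over f/wt samples and 2367 CPM over Δm/wt samples, and a log2 fold change of -0.37 ± 0.29 (adjusted p = 0.320 by edgeR). For Eif4g2, which encodes an eIF4G-like scaffold, it was -0.54 ± 0.40 (adjusted p = 0.284). The genes that rose were Eif1b, a paralog of Eif1 (1.83 ± 0.35, adjusted p = 3.68e-04 by edgeR), and Eif4a1, which encodes the helicase itself (1.52 ± 0.45, adjusted p = 0.00905 by edgeR). These 2 fall outside the rule for named genes and are given because only 2 rose. With scaling to the reference genes 11 of the list fell and 3 rose, beside 1594 and 3540 of all 11344 genes tested.

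**Figure D5:**
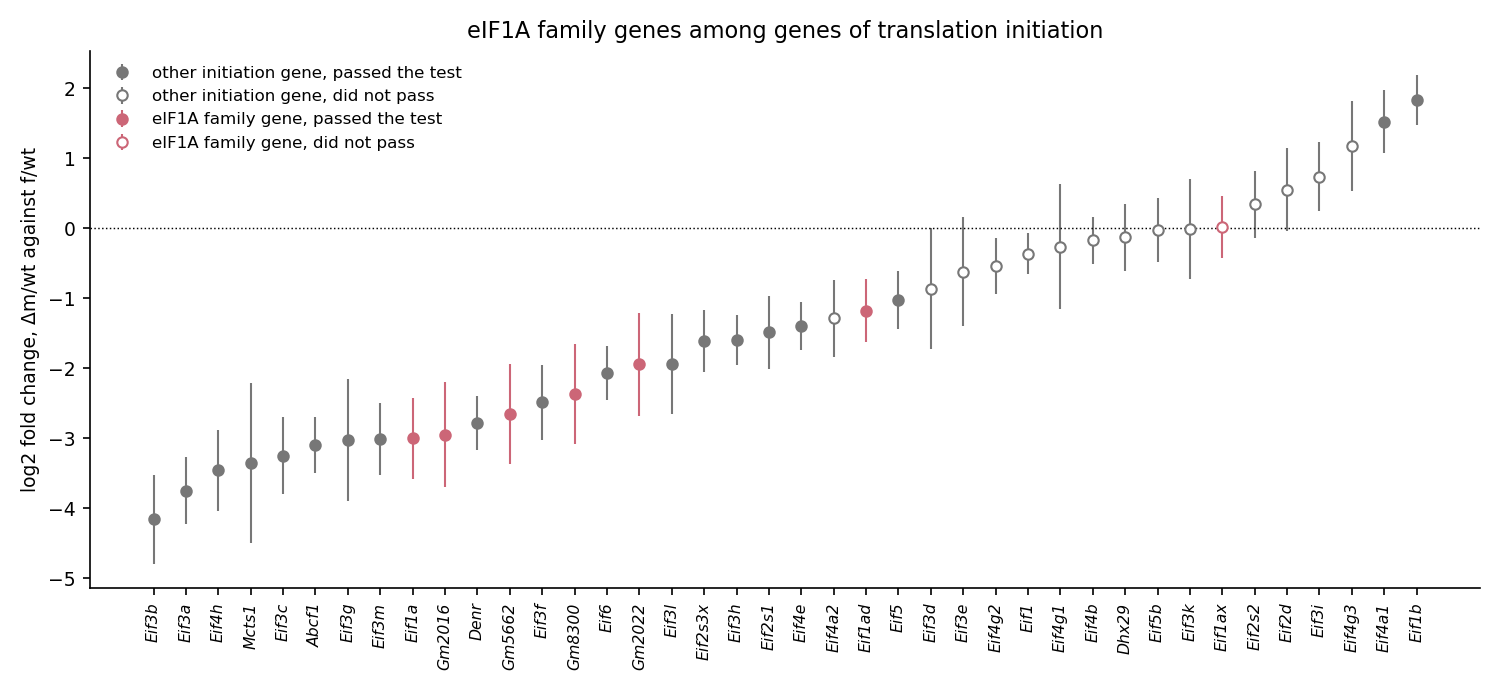
Log2 fold change of Δm/wt against f/wt with its SE for the 7 family genes (red) and 33 other genes of translation initiation (grey), in order of the fold change, filled where the adjusted p was under 0.05. Eif1a lies among the genes that fell most, beside subunits of eIF3, and Eif1ax lies at 0.01 among genes that did not pass.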

How the data were processed

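Counts per gene of 16 libraries, each labelled as a single two-cell embryo, were used as deposited, except that f/wt 2 and 3 were added up. As the methods and the labels state, the authors filtered the short single-end reads, aligned them to mm10 with TopHat2 (2.0.6), kept unique best alignments and made the counts over RefSeq genes with HTSeq (0.6.1). The strand setting and annotation release are not given in the sources used here, and reads carried no molecular identifiers. Counts were tested with edgeR (4.0.16) in R (4.3.3) by quasi-likelihood tests after TMM scaling, with p-values adjusted by the Benjamini-Hochberg method over the 60% of counted genes with the highest summed counts (11344 of 18907), as in the study, and a threshold of 0.05. The mean TMM factor was 1.16 over f/wt samples and 0.897 over Δm/wt samples. The tests were also tried on simulated counts, with means and dispersions taken from these data, and the outcome is not reported here. CPM are after TMM scaling, and log2 CPM used a prior count of 2. The labels do not say whether embryos of 1 group came from different females, so p-values measure the spread between these embryos. Embryo numbers did not pair the samples (correlations of deviations -0.068 to 0.093 over 7 pairs). The sets of embryos 1 and 2, 3, and 4 to 8 follow the study's table of reads, and the summed f/wt 2 and 3 was placed with embryo 3. Alternatives were library totals, the 3 reference genes of the study's qPCR, DESeq2 (1.42.0), limma-voom (limma 3.58.1), other filters, f/wt 2 and 3 kept apart, embryos 4 to 8, a term for the sets, the embryo number as a block, and each sample left out in turn. Sequences were compared with GENCODE M21 on mm10 and blastn (2.17.0). Named genes were the members, Kdm1a, the 5 genes most alike by each measure, Zscan4d and Tdpoz4, and of the initiation list the 4 genes of at least 10 mean CPM with the largest change that passed and the 2 of highest mean that did not. The members and lists were chosen with earlier results of these data known. The deposited tables of repeat reads were not used here.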

Additional observations from a re-analysis of the deposited data

Results flagged for a closer look

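Of 20 groups of values examined, 7 had a sample far from the others by Dixon's test at the 95% level, where chance gives about 1 in 20. That rate holds for independent, normally distributed values. The CPM were taken without a log scale and the groups include sums that share counts, so it is not a fair measure here. Eif1a stood at 84.7 CPM in Δm/wt 4, with the next highest Δm/wt sample at 42.2. In Δm/wt 8, Gm2022 (250 CPM, next 114), Gm5662 (350 CPM, next 162) and Gm8300 (360 CPM, next 162) were far above the other Δm/wt samples. The sums that contain them were high there too: 1160 CPM for the 4 copies, 1203 CPM for Eif1a with the copies, and 1373 CPM for all members. The sums reuse the counts of the single copies, and the levels of the copies were closely correlated. These 6 values in Δm/wt 8 are thus not independent of each other.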

How the results depend on the processing

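Over 175 values of the 7 members under 25 alternatives, 141 kept their direction and side of the threshold, 22 kept the direction but lost the call, and 12, all of Eif1ax and none with an adjusted p under 0.05, changed sign. For Eif1ax the log2 fold change was -0.44 with library totals, -0.23 with limma-voom, -0.15 without a filter, -0.024 with edgeR's filterByExpr, -0.019 with f/wt 2 and 3 kept apart and -0.22 with the replicate block, against 0.81 with scaling to Hprt, Gapdh and Ppia, and ran from -0.25 to 0.15 with each sample left out. Eif1a kept its call under all 25 (-3.70 to -2.31). Members that fell numbered 4 to 6 with each sample left out, 4 among embryos 4 to 8, 5 with a term for the sets, where Eif1ad lost its call, and 4 with the replicate block, where, as among embryos 4 to 8, Eif1ad and Gm2022 lost their calls. With scaling to Hprt, Gapdh and Ppia 1 fell. None rose under any alternative. Of all genes, 2488 rose and 2583 fell with TMM, 1892 and 3116 with library totals, and 3540 and 1594 with the reference genes. The mean of the summed copies was 1618 to 2045 CPM in f/wt and 212 to 373 in Δm/wt with each sample left out. Of the numbered embryos, 1 of 7 pairs was closest to its own number. Depth limited single copies most in Δm/wt 2, with 64 counts over the 4 copies. Reads of near-identical copies without a row could have been lost or counted to a member, which was not tested.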
